A study of Oryza sativa with 6 samples.

Results

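Nrat1 and its relatives of the NRAMP family were followed in rice root tips before and after aluminium (Al). The members were all probe sets whose transcript annotation names Os02g0131800 (Nrat1), 1 of 5 further NRAMP loci, or a product described as an NRAMP metal transporter. That rule took 12 of 57258 probe sets, 7 by locus and 5 by product text, from 8 of the 37390 genes named in the annotation. It uses names and no measured value. Root tips (0 to 1 cm) of Japonica rice were measured on 6 Affymetrix Rice Genome arrays in 2 groups. The group after Al held 3 arrays from 5-d-old seedlings kept for 6 h in 0.5 mM CaCl2 with 50 µM Al at pH 4.5. The group before Al held 3 arrays from seedlings that had been floated on 0.5 mM CaCl2 and had received no Al. The labels call the 3 samples of a group biological repeats and do not say whether each came from its own culture. The p-values therefore measure how far these samples spread, which may be technical. The design used here has no tips of the later time without Al, so Al and time in the solution cannot be told apart. The labels do not state the pH before Al.

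NRAMP proteins (natural resistance-associated macrophage proteins) are membrane transporters that carry divalent metal ions such as manganese and iron into the cytosol together with protons. In rice roots they are known for the uptake of manganese and iron, and for letting in cadmium by the same route. Nrat1 is the family member known to carry trivalent Al instead: it sits in the plasma membrane of root tip cells and brings Al into the cell, from where the tonoplast transporter OsALS1 moves it into the vacuole. Its gene is under the zinc finger factor ART1.

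Between 25005 and 25492 probe sets were called present per array after Al, against 24836 to 24927 before Al. Testing was limited to probe sets with a present call on 3 or more of the 6 arrays of both groups together. That left 25283 probe sets, 9 of them from 7 NRAMP loci, with a median log2 change of -0.04 over all 25283. All 4 markers of the root tip fixed for this work (PIN2, SHR1, SCR1 and QHB) were called present on every array, and 0 of them rose while 2 fell. Their summed linear signal was 2877 to 3368 after Al and 3679 to 4047 before Al, so the groups did not overlap. This sum mostly follows PIN2, with a mean log2 signal of 11.66 before Al against 8.44 for SHR1, the next brightest. PIN2 (log2 change -0.35) and SCR1 (-0.93) were the 2 that fell, while SHR1 (-0.08) and QHB (0.21) did not pass. The sum over 2 markers of mature root (Lsi1 and Lsi2) was 5784 to 7257 after Al and 7119 to 8675 before Al, with overlap, and 1 of the 2 rose. Over 8 measured green tissue genes the sum was 694 to 909 after Al and 1158 to 1293 before Al. Of the 8, 3 were present on no array, and of the 4 tested 2 fell and 0 rose. The 2 that fell were Rubisco small subunit genes, LOC_Os02g05830 (log2 change -3.14, present on 0 arrays after Al) and LOC_Os12g17600 (-0.68). The other 2, LOC_Os12g19470 (-0.05) and LOC_Os01g52240 (0.10), did not pass, so the lower sum was not shared by all tested genes. None of the root tip or green tissue markers was higher at an unadjusted p under 0.05 or in a plain test with unequal variances either (counts of 0 by limma and by that test). In whole tips, fewer cells of a type and less RNA per cell cannot be told apart, and the part of these shifts in the changes below was not tested.

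Of the 9 NRAMP probe sets tested, 6 rose and 0 fell (limma, adjusted p under 0.05 over all tested probe sets), where 14.3% of all tested probe sets rose and 15.9% fell, 30.2% in either direction. Also at an unadjusted p under 0.05, and in a plain test with unequal variances, 0 fell. By locus, with the probe set of highest mean signal for each, 5 of 7 rose and 0 fell, with a median log2 change of 0.51, beside 15.9% of 18992 genes higher, 17.5% lower and a median of -0.04. The members that rose were Nrat1, OsNRAMP1, OsNRAMP5, OsNRAMP3 and LOC_Os01g31870. OsNRAMP2 and LOC_Os12g39180 did not pass the test. The members were chosen with earlier results of these data known, so the count is given as a description of these genes.

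**Figure D1:**
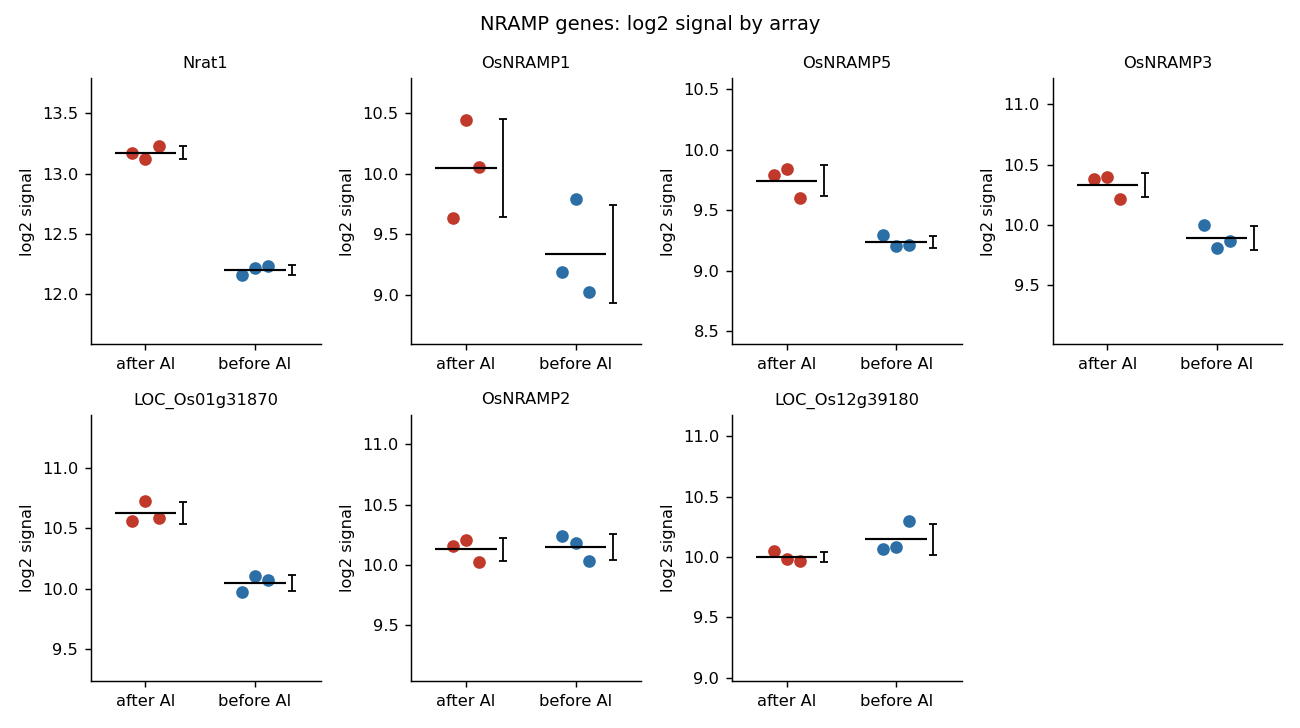
Log2 signal (vertical axis) of 7 NRAMP genes on each of the 3 arrays after Al (red, left) and the 3 before Al (blue, right), with 1 point per array, the group mean as a line and the SD as a bar beside it. Every panel spans the same log2 range around its own mean. Nrat1 has the widest gap between its groups among the 7 panels (0.88), and the groups of OsNRAMP1 and OsNRAMP2 overlap.

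Nrat1, the Al transporter, is measured by a probe set whose target aligns to chromosome 2, 1658575 to 1662629, on the minus strand, at LOC_Os02g03900. Coordinates here come from the deposited annotation, which names no genome build. Its log2 signals were 13.17, 13.12 and 13.23 on the 3 arrays after Al, against 12.16, 12.22 and 12.24 before Al. The lowest array after Al lay 0.88 above the highest array before it, and the spread within each group was small (13.17 ± 0.05 after Al and 12.20 ± 0.04 before Al, SD, n = 3 each). Nrat1 rose by 0.97 ± 0.05 (log2 change, SE), which is 1.96-fold with a 95% interval of 1.80 to 2.12 (limma, adjusted p = 9.48e-07). Of the 25283 tested probe sets, 1284 (5.08%) had a larger rise and 234 a smaller adjusted p. The authors' deposited table, made from the same arrays, gives Nrat1 a fold change of 1.96 and an unadjusted p-value of 2.84e-05. Nrat1 had already been called present on all 3 arrays before Al.

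A second probe set is assigned to Nrat1 (chromosome 2, 1657267 to 1662589), but through overlap on the genome alone: 0 of its probes match a transcript of the gene, while 11 of the first probe set's probes do. It was called absent on all 6 arrays, with log2 signals of 2.38, 1.30 and 2.84 after Al and 2.20, 3.44 and 1.48 before Al. It was not tested. Probe sets that were present on no array had a median signal of 2.73 to 3.10 per array.

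OsNRAMP5, the transporter known for most of the manganese and cadmium uptake of rice roots, lies on chromosome 7 (8869886 to 8877210, minus strand, LOC_Os07g15370). The gene had log2 signals of 9.79, 9.84 and 9.60 after Al, against 9.30, 9.20 and 9.22 before Al. All 3 arrays after Al lay above all 3 before it, by at least 0.30. It rose by 0.51 ± 0.09 (log2 change, SE), a fold of 1.42 with a 95% interval of 1.23 to 1.63 (limma, adjusted p = 0.00206). In a plain test with unequal variances its adjusted p was 0.0706.

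OsNRAMP1, a plasma membrane transporter known for iron and cadmium, lies on the plus strand of the same chromosome (8964345 to 8969177, LOC_Os07g15460), 87134 bases from OsNRAMP5. Its log2 signals were 9.63, 10.45 and 10.05 after Al, against 9.19, 9.79 and 9.02 before Al. The groups overlapped, since the second array before Al was above the first array after it, and the SD was 0.41 in each group. OsNRAMP1 rose by 0.71 ± 0.23 (log2 change, SE; limma, adjusted p = 0.0400), a fold of 1.64 with a 95% interval of 1.15 to 2.33. This call did not hold up against the replicate spread in several settings: leaving out 1 array after Al gave an adjusted p of 0.141 (second array) or 0.0845 (the third), and it was 0.117 without the first array before Al and 0.138 without the third there. It was also lost without the filter (0.0933), without the intensity trend (0.123) and in the test with unequal variances (0.246). Over all alternatives its adjusted p ran from 0.00143 to 0.246. The authors' deposited table gives OsNRAMP1 a fold change of 1.64 and an unadjusted p-value of 0.0989.

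The order of the arrays within each group was the same for OsNRAMP1 and for some genes of metal handling. In both groups its highest array was the second, 0.40 above the group mean after Al and 0.46 above it before Al. A list of 25 genes for manganese, iron and cadmium handling in the root had 21 tested members, and 14 of these (66.7%) also had their highest signal on the second array of both groups. That order held for 8.53% of all tested probe sets and for 2 of 11 Al tolerance genes. The full order of the arrays in both groups was the same as that of OsNRAMP1 for 11 of the 21 (52.4%), against 2.10% of all tested probe sets. These orders were looked at after the values had been seen and are given without a test. The list's median deviation from the group mean was 0.33 on the second array after Al and 0.25 on the second array before Al.

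Among these 11 was TOM1 (LOC_Os11g04020), the exporter of the iron chelator deoxymugineic acid. Its log2 signals were 9.42, 11.09 and 10.22 after Al, and 7.71, 9.92 and 7.23 before Al. NAS1 (LOC_Os03g19427), an enzyme of nicotianamine synthesis, had 13.21, 14.17 and 13.65 after Al, and 12.06, 13.60 and 11.44 before Al. For both genes the second array before Al lay above the first array after Al, as it did for OsNRAMP1. Without the second array of each group, an alternative added after the data were seen, OsNRAMP1 was higher by 0.74 ± 0.16 (limma, adjusted p = 0.0127). Those arrays were chosen for their values, which narrows the spread by construction, so this p does not bear on the call. Of the 9 tested NRAMP probe sets, 2 (22.2%) had their highest signal on the second array of both groups. They were that of OsNRAMP1 and the brightest of LOC_Os01g31870, which differed from OsNRAMP1 in the order before Al. OsNRAMP5, Nrat1 and OsNRAMP3 did not share the full order of arrays either.

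**Figure D2:**
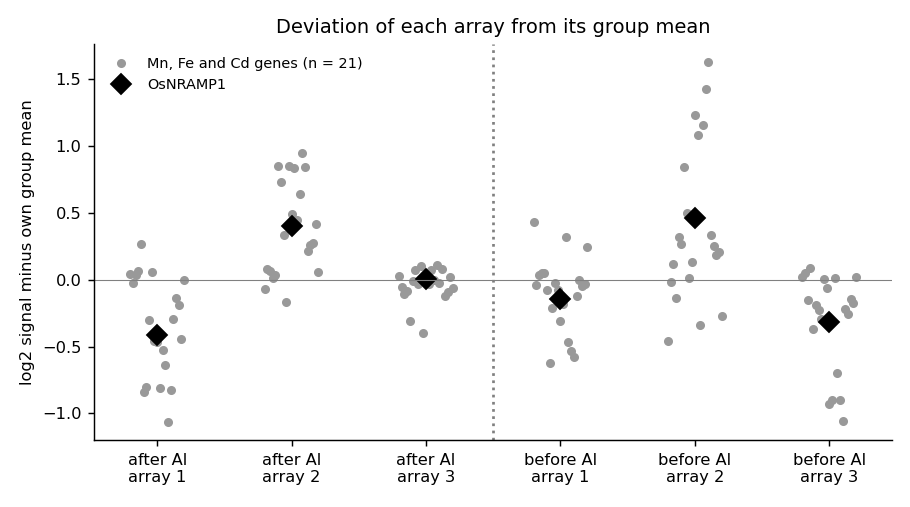
Log2 signal of each array minus the mean of its own group (vertical axis), by array (3 after Al on the left, 3 before Al on the right). Black diamonds are OsNRAMP1 and grey points the 21 tested genes of manganese, iron and cadmium handling. On the second array of each group OsNRAMP1 lies 0.40 (after Al) and 0.46 (before Al) above its group mean, and 19 and 16 of the 21 genes also lie above theirs.

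OsNRAMP3, known for passing manganese between vascular tissues of the shoot, lies on chromosome 6 (28058354 to 28064171, minus strand, LOC_Os06g46310). OsNRAMP3 had log2 signals of 10.38, 10.40 and 10.22 after Al, against 10.003, 9.81 and 9.86 before Al. The groups did not overlap, with a gap of 0.21. It rose by 0.44 ± 0.08 (log2 change, SE), a fold of 1.36 with a 95% interval of 1.19 to 1.54 (limma, adjusted p = 0.00294). Without the second array of both groups it was higher by 0.37 and had an adjusted p of 0.0508. The annotation lists 9 probes of its probe set as also matching the opposite strand of another transcript record. Whether this bears on the signal of OsNRAMP3 was not tested.

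OsNRAMP2 (chromosome 3, 5634234 to 5638287, minus strand, LOC_Os03g11010) had log2 signals of 10.16, 10.21 and 10.02 after Al, against 10.24, 10.18 and 10.03 before Al. The groups overlapped over nearly their whole range. Its log2 change was -0.02 ± 0.08 with a 95% interval of -0.21 to 0.17 (limma, adjusted p = 0.877), so a rise of the size seen for Nrat1 lay outside the interval. The sign of this small value turned without the third array after Al (0.03) and without the first before Al (0.02).

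LOC_Os12g39180 (chromosome 12, 24086314 to 24090178, minus strand) had 10.05, 9.98 and 9.97 after Al, against 10.06, 10.08 and 10.29 before Al. Its groups did not overlap, by only 0.01, and all 3 arrays after Al lay below those before it, an order found for 24.1% of all tested probe sets. Its log2 change was -0.15 ± 0.08 with a 95% interval of -0.33 to 0.04 and did not pass (limma, adjusted p = 0.224). Among the other tested NRAMP probe sets, 5 had all 3 arrays after Al above all 3 before it, an order found for 19.6% of all tested probe sets.

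LOC_Os01g31870 on chromosome 1 (Os01g0503400) was found by its product text and has 4 probe sets that match different transcript models. It is listed in RefSeq under the synonym NRAMP4, matched through a gene number that the deposited table gives only for the probe sets of models 5 and 8. NRAMP numbers of this gene differ between sources, so it is called by its locus. The brightest of the 4 probe sets (17780868 to 17791895, minus strand) matches models 1 and 6. It had log2 signals of 10.56, 10.73 and 10.59 after Al, against 9.97, 10.10 and 10.07 before Al. All arrays after Al were higher, by at least 0.46. It rose by 0.58 ± 0.07 (log2 change, SE), a fold of 1.49 with a 95% interval of 1.33 to 1.67 (limma, adjusted p = 0.000280).

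Another probe set of LOC_Os01g31870 matches its models 1 to 7, and the ending of its name marks it as one that may also bind similar transcripts. For some other member probe sets that rose, the annotation lists probes that also match another transcript record. They number 7 for the brightest probe set of LOC_Os01g31870, 7 for OsNRAMP3 and 5 for OsNRAMP1. The probe set for models 1 to 7 gave 8.73, 9.07 and 8.95 after Al, against 8.24, 8.17 and 8.04 before Al. It rose by 0.77 ± 0.12 (limma, adjusted p = 0.000944), and its groups did not overlap.

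The remaining probe sets of this locus were dim. The one that matches model 5 alone was called present on 2 arrays of each group. It gave 4.25, 3.66 and 6.14 after Al, against 3.58, 4.57 and 4.18 before Al. Its log2 change of 0.57 ± 0.64 had a 95% interval of -0.86 to 2.00 and did not pass (limma, adjusted p = 0.553), and it was -0.15 without the third array after Al. The one that matches model 8 was present on 0 arrays after Al and 2 before Al, too few for the test, with 4.99, 4.59 and 4.25 after Al and 5.01, 3.68 and 5.89 before Al. For these 2 probe sets a change was not detectable at this signal. Model 5 is also matched by 11 probes of the probe set for models 1 to 7, which rose.

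**Figure D3:**
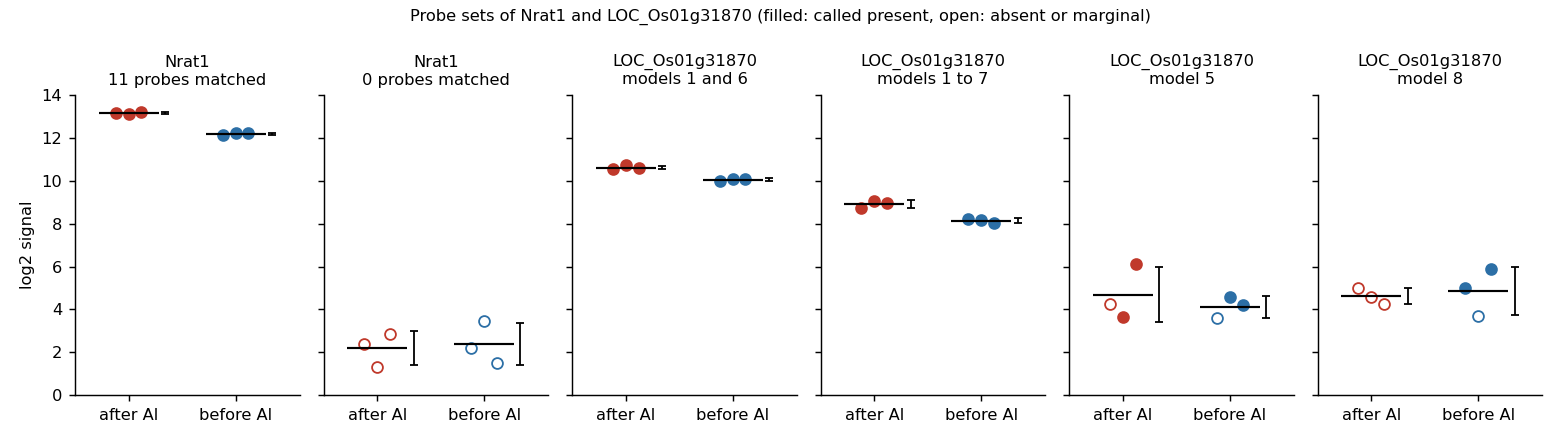
Log2 signal (vertical axis) by array for both probe sets assigned to Nrat1 and the 4 assigned to LOC_Os01g31870, after Al (red, left) and before Al (blue, right), with group means as lines and SD as bars. Filled points were called present and open points absent or marginal. The Nrat1 probe set with 0 matching probes stays below 4 on all 6 arrays, while the one with 11 matching probes lies above 12.

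The last member, LOC_Os01g53210 (chromosome 1, 30900982 to 30903135, minus strand), was called absent on all 6 arrays and was not tested. Its log2 signals were 2.62, 2.74 and 4.72 after Al, against 2.94, 2.00 and 4.08 before Al. Its annotated protein has 2 predicted membrane-spanning helices. For each of the 7 tested loci, the model with most helices has 10 to 12. Nrat1, OsNRAMP5 and OsNRAMP3 are annotated with up to 12 helices, OsNRAMP1, LOC_Os12g39180 and LOC_Os01g31870 with up to 11, and OsNRAMP2 with 10. Models 5 and 8 of LOC_Os01g31870, those of the dim probe sets, are annotated with 6 and 3 helices. Loci with 11 helices include members that rose and 1 that did not pass.

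**Figure D4:**
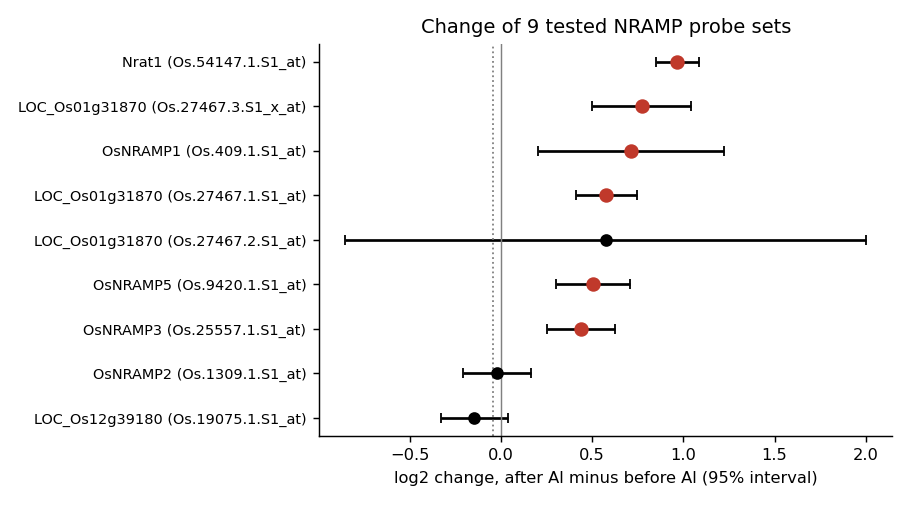
Log2 change, after Al minus before Al (horizontal axis), of the 9 tested NRAMP probe sets with 95% intervals from limma (n = 3 arrays per group). Red points passed an adjusted p of 0.05, the solid vertical line is 0 and the dotted line the median of all tested probe sets, -0.04. Nrat1 is at the top at 0.97 and LOC_Os12g39180 at the bottom at -0.15.

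Whether the members changed by different amounts was tested in 7 pairs, by the difference of their log2 signals on each array. Each gene was represented by its probe set of highest mean signal alone. For LOC_Os01g31870 that is the one for models 1 and 6, which rose by 0.58. Its probe set for models 1 to 7 rose by 0.77, nearer to Nrat1, and was not put in a pair. With 3 arrays a group, an exact two-sided permutation test cannot go below 0.1, so no pair could pass. Nrat1 rose by 0.39 ± 0.08 more than LOC_Os01g31870 (log2, SE), 0.46 ± 0.12 more than OsNRAMP5 and 0.53 ± 0.12 more than OsNRAMP3. Its change exceeded that of OsNRAMP2 by 0.99 ± 0.12 and that of LOC_Os12g39180 by 1.11 ± 0.07. In each of these 5 pairs the groups did not overlap, which gave the smallest p the design allows (exact permutation p = 0.1, Benjamini-Hochberg 0.14 over the 7 pairs). Nrat1 and OsNRAMP1 differed by 0.26 ± 0.34 with overlapping groups (exact permutation p = 0.5, adjusted 0.583). The chromosome 7 neighbours OsNRAMP1 and OsNRAMP5 differed by 0.21 ± 0.34, less than the spread between arrays (exact permutation p = 0.7, adjusted 0.7).

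The 5 genes most like Nrat1 were those whose 6 log2 signals, each centred on its own mean, had the smallest root mean square difference from Nrat1's. The measure covers 6 arrays in 2 groups, so it mostly ranks genes by the size of their change and by their small spread. Nearest of 22971 probe sets was LOC_Os04g01570, described as both a pectinesterase and a pectinesterase inhibitor, at a difference of 0.01 on the log2 scale. It had 9.72, 9.64 and 9.76 after Al and 8.67, 8.74 and 8.76 before Al. Next were LOC_Os01g60770, described as an alpha-expansin, a protein that loosens cell walls (0.03), and LOC_Os01g09570, a phosphofructokinase of glycolysis (0.04). They were followed by LOC_Os02g39790, an S-adenosylmethionine decarboxylase of polyamine synthesis (0.04), and LOC_Os11g07830, a dirigent-like protein (0.05). Their log2 changes were 0.90 to 0.98, and none of the 5 is an NRAMP gene. Within the family, the probe set of LOC_Os01g31870 that matches models 1 to 7 came nearest to Nrat1, at 0.17 and rank 498.

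Beside the family, 11 other Al tolerance genes and 25 genes of manganese, iron and cadmium handling were read from the same fit. All 11 Al tolerance genes rose and 0 fell (limma, and 0 also at an unadjusted p under 0.05 and in the test with unequal variances), with a median log2 change of 0.94, beside 15.9% of all genes higher. In the test with unequal variances 4 of the 11 rose (STAR1, STAR2, OsALS1 and OsFRDL2). These genes are well known for their response to Al and were listed with earlier results known, so their direction is not independent evidence. The change of Nrat1 (0.97) lay among those of STAR2 (LOC_Os05g02750, the membrane subunit of an ABC transporter, 0.90), OsALS1 (LOC_Os03g54790, the vacuolar Al transporter, 1.00) and OsFRDL2 (LOC_Os10g13940, a citrate transporter relative, 1.04). OsFRDL4 (LOC_Os01g69010), which releases citrate, had log2 signals of 10.53, 10.07 and 10.44 after Al, against 5.17, 3.11 and 5.44 before Al, where it was called present on 0 arrays. It rose (limma, adjusted p = 2.17e-05), but it passed the presence filter only through the arrays after Al, where it was high. Its place among the 11 is therefore not separate support, and its size rests on signals that were not called present. OsFRDL4 had an adjusted p of 0.0761 in the test with unequal variances. The fitted log2 change of 5.78 was 5.04 without the second array before Al and 4.96 with 16 added to the linear signals.

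STAR1 (LOC_Os06g48060, the ATP-binding partner of STAR2) rose by 1.86 ± 0.06 (log2 change, SE) and the peptide OsCDT3 (LOC_Os01g08300) by 1.43 ± 0.18. ASR1 (LOC_Os02g33820) rose by 0.94 ± 0.11, ASR5 (LOC_Os11g06720) by 0.49 ± 0.08 and the expansin OsEXPA10 (LOC_Os04g49410) by 0.52 ± 0.09. The magnesium transporter OsMGT1 (LOC_Os01g64890) rose by 0.76 ± 0.20, which no longer passed when the second array of either group was left out (limma, adjusted p = 0.0592 without that after Al and 0.0543 without that before Al). ART1 (LOC_Os12g07280) rose by 0.35 ± 0.10, which no longer passed when the last array after Al (limma, adjusted p = 0.0639) or 1 of the first 2 before Al (0.0559 and 0.0802) was left out.

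Of the 25 manganese, iron and cadmium genes 21 were tested, of which 9 rose and 2 fell (limma), with a median log2 change of 0.74, beside 15.9% of genes higher and 17.5% lower. The 2 that fell were LOC_Os04g38940, described as a protein CCC1, and LOC_Os03g12530, described as a metal tolerance protein. LOC_Os04g38940 changed by -0.48 ± 0.08 (limma, adjusted p = 0.00141) and LOC_Os03g12530 by -0.19 ± 0.06 (0.0442). In the test with unequal variances 0 genes of the list fell. Without the second array after Al 5 rose and 2 fell. IRT1 (LOC_Os03g46470), an iron transporter of the root surface, rose by 2.23 ± 0.36 (log2 change, SE, with a limma adjusted p of 0.00111). In the test with unequal variances the adjusted p of IRT1 was 0.134. Its signals were 7.47, 9.16 and 8.30 after Al, against 6.00, 6.34 and 5.88 before Al, and it was present on 2 of the 3 arrays before Al. The nicotianamine synthase NAS3 (LOC_Os07g48980) rose by 1.58 ± 0.28 and had 1 present call before Al. Like OsFRDL4, it passed the presence filter only through the arrays after Al, where it was high. Its place among the 9 is therefore not separate support. NAS3 had an adjusted p of 0.0768 in the test with unequal variances.

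TOM1 rose by 1.95 ± 0.63 (limma, adjusted p = 0.0409) and YSL2 (LOC_Os02g43370), a transporter of iron and manganese bound to nicotianamine, by 1.42 ± 0.42 (0.0303). The annotation describes the YSL2 locus as a transposon protein. The calls of TOM1 and YSL2 were lost without array 2 or 3 after Al and without array 1 or 3 before Al, as was that of OsNRAMP1 (adjusted p of 0.0838 to 0.145 for TOM1 and 0.0733 to 0.113 for YSL2). MTP9 (LOC_Os01g03914), which exports manganese from root cells towards the stele and is known to work beside OsNRAMP5, had a log2 change of 0.48 ± 0.23 and did not pass (limma, adjusted p = 0.147). It passed without the first array before Al (0.0438).

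**Figure D5:**
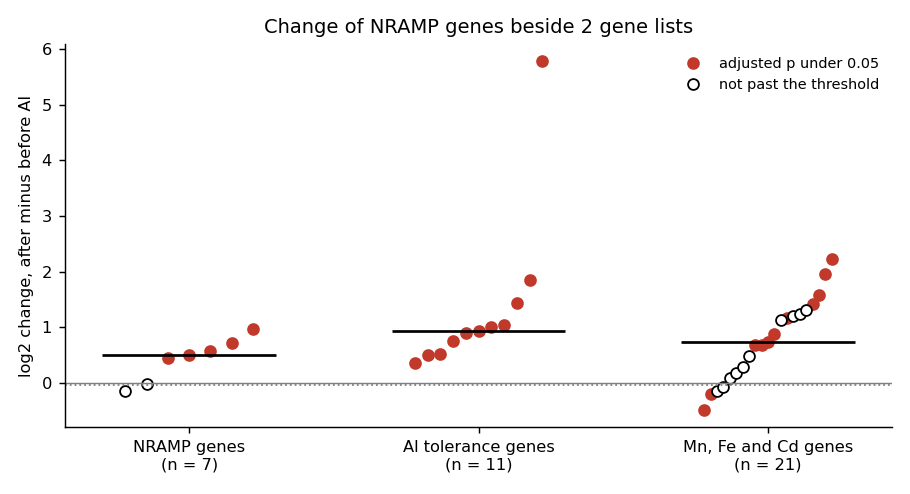
Log2 change, after Al minus before Al (vertical axis), of the 7 tested NRAMP genes beside 11 Al tolerance genes and 21 genes of manganese, iron and cadmium handling, with 1 point per gene and 1 probe set per gene. Red points passed an adjusted p of 0.05 in limma, black lines are the medians of the 3 sets (0.51, 0.94 and 0.74) and the dotted line is the median of all tested probe sets.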

How the data were processed

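Per the submitters' processing notes the signals were made with MAS5, with no version stated. The deposited table holds log2 signals (identical to the deposited value table, largest difference 0), a detection call per array, and the authors' p-value and fold change, which are quoted only where credited to the authors' deposited table. Genes are named through that table's annotation, and gene symbols were added from prior knowledge. Coordinates are those of its probe set alignments, on a genome build that no source used here names. Of 12 member probe sets, 2 matched the RefSeq gene table by gene number.

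Log2 signals were used as deposited and tested with limma 3.58.1 in R 4.3.3 (lmFit, then eBayes with an intensity trend), two-sided, 3 arrays against 3, with Benjamini-Hochberg adjustment over 25283 probe sets and a threshold of 0.05. The number of arrays limits the precision. On simulated data, 119 of 200 changes of 1 log2 unit among 25283 probe sets were recovered, with 6 false calls. The simulated share of changed probe sets was far below the 30.2% called in the data. These counts therefore do not give the recovery or false calls of the comparison itself. Named were all members, the 5 genes most like Nrat1, all listed Al tolerance genes, and of the manganese, iron and cadmium list MTP9, IRT1 and the 4 largest passing changes. NAS1 and the 2 genes of that list that fell were named after their values were seen. Members and lists were chosen with earlier results of these data known. Alternatives were no filter, presence on all 6 arrays, quantile normalization, no intensity trend, 16 added to the linear signals, unequal variances, the repeat number as a block, and leaving out arrays.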

Additional observations from a re-analysis of the deposited data

How the results depend on the processing

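The rise of Nrat1 kept its direction and passed in every alternative run (0.94 to 1.00 on the log2 scale, adjusted p up to 0.00581), and leaving out single arrays gave 0.94 to 0.99. The count of NRAMP probe sets that rose was 4 to 6 over the alternatives (5 to 6 without single arrays), and 0 fell in each. Both calls of LOC_Os01g31870 held in all alternatives, and OsNRAMP1, OsNRAMP3 and OsNRAMP5 lost theirs where the report says so. Signs turned for 2 values, neither of them called. The change of OsNRAMP2 ran from -0.083 to 0.031 without single arrays and that of the LOC_Os01g31870 probe set for model 5 from -0.15 to 1.08, and the cause was not tested. The 7 differences between members kept their sign under quantile normalization and without single arrays: against Nrat1 they ran from 0.03 to 0.48 for OsNRAMP1, 0.36 to 0.54 for OsNRAMP5, 0.44 to 0.59 for OsNRAMP3, 0.91 to 1.07 for OsNRAMP2, 1.06 to 1.15 for LOC_Os12g39180 and 0.35 to 0.47 for LOC_Os01g31870, and from 0.05 to 0.45 between OsNRAMP1 and OsNRAMP5.

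The manganese, iron and cadmium list was less steady. Its 9 rising and 2 falling genes became 4 and 1 without the intensity trend, 2 and 0 with unequal variances and 14 and 1 with the replicate block, 1 fell without the filter, and 13 rose and 1 fell without the second array of both groups. Without single arrays 5 to 13 rose and 1 to 2 fell, the lowest count of rises (5) without the second array after Al. The Al tolerance list had 9 to 11 rises without single arrays and 4 with unequal variances. The cause was not tested. Beyond those planned, settings for this list and for single named genes were added after the data were seen.

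The sample titles give both groups repeat numbers 1 to 3, which are used here, while the column names number the arrays after Al 2 to 4, so the matching across groups is uncertain. Deviations from the group means correlated at 0.07, 0.00 and 0.09 between arrays of the same number over the tested probe sets. Between arrays of different numbers the correlations ran from -0.09 to 0.02, so 0.07 and 0.09 were the highest. All were small (under 0.1), and the numbers were not taken to pair the samples, which these values do not settle. The manganese, iron and cadmium genes that share an order of arrays with OsNRAMP1 are an exception to this by number. With the number as a block 6 NRAMP probe sets rose and 0 fell, and OsNRAMP1 had an adjusted p of 0.00143.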

Other observations

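EIN2, a membrane protein of ethylene signalling, carries an NRAMP-like part but is not described as a metal transporter, so the rule did not take it. It was looked at after the values had been seen. The probe set assigned to LOC_Os07g06130 and LOC_Os07g06300 together, both described as EIN2, had log2 signals of 10.61, 10.53 and 10.47 after Al, against 10.87, 11.06 and 10.88 before Al. It fell by 0.40 on the log2 scale (SE 0.07; limma, adjusted p = 0.00260), and its groups did not overlap. The EIN2 gene LOC_Os03g49400 had a log2 change of -0.01 ± 0.11 and did not pass (limma, adjusted p = 0.969).

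Chromosomal neighbours of the family were also read after the values had been seen. Of 17 probe sets aligned between OsNRAMP5 and OsNRAMP1, 6 were tested, and their log2 changes ran from -0.20 to 0.06. None of the 6 passed in limma, at an unadjusted p under 0.05 or in the test with unequal variances (0 in each). Beside Nrat1, the nearest tested gene on its lower side was LOC_Os02g03890, described as an RNA binding protein, at a distance of 3469 bases. It fell by 0.23 on the log2 scale (SE 0.08; limma, adjusted p = 0.0448). On the upper side the nearest gene, LOC_Os02g03910, was present on 0 arrays, and the next, LOC_Os02g03930 at 6831 bases, had a log2 change of 0.20 ± 0.19 and did not pass (limma, adjusted p = 0.499).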
